A study of Mus musculus with 2 samples.

Results

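The promoters of Mrpl15, Lypla1 and Tcea1 carried narrow JARID2 peaks with almost no MTF2 reads under them in mouse embryonic stem (ES) cells. These 3 genes were chosen by name from a first look at the same data, out of 1204 protein-coding genes on chromosome 1 in the RefSeq gene table of the assembly GRCm38.p6. They are neighbours: in that table no other protein-coding gene lies between Mrpl15 and Lypla1 or between Lypla1 and Tcea1. Each was examined over 10 kb either side of a start site at about position 4775800 (Mrpl15), 4798000 (Lypla1) and 4847800 (Tcea1) of chromosome 1, in the coordinates of the deposited reads. Their JARID2 and MTF2 levels chose them, so those levels are given as a description, without a test.

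The study measured where the proteins MTF2 and JARID2 sit on DNA by ChIP-seq, in which fragments bound to a protein are recovered with an antibody and sequenced. There was 1 library per factor, both from ES cells of a 129SvJae x C57BL/6 background at passages 10 to 15, kept off feeder cells for 2 to 3 passages. The libraries were not replicated, no input or control antibody was analysed here, and no RNA was measured. That the genes are housekeeping genes in active use is therefore background knowledge and was not checked, and ES cell markers could not be examined. Chromosome 1 carried 692305 distinct MTF2 reads and 980676 distinct JARID2 reads. The reads were 52 bp long for MTF2 and 36 bp for JARID2 and came from separate runs by their names, so a difference between factors and a difference between runs cannot be told apart.

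Polycomb repressive complex PRC2 places a repressive methyl mark on histones, chiefly at CpG-rich promoters of developmental genes that ES cells keep silent. JARID2, a Jumonji-family protein that has lost demethylase activity, and MTF2, a Polycomb-like protein, are accessory subunits of PRC2 and help bring it to DNA. Promoters of housekeeping genes are also CpG-rich as a rule, but they are transcribed and usually free of the PRC2 mark. The comparison at these genes therefore asks whether such promoters show a signal for one PRC2 partner without the other.

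A level is given as a fold, which is the number of distinct reads divided by the number expected from the rest of chromosome 1. The expected number was 3.51 reads per 1 kb for MTF2 and 4.25 for JARID2. One MTF2 read in 1 kb is thus a level of 0.285-fold. A bin was called raised at 5-fold or more. All intervals are exact at 95% and cover counting error only, since PCR copies of a fragment are not separate molecules and no library was repeated.

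Mrpl15 encodes a protein of the large subunit of the mitochondrial ribosome and is transcribed toward lower coordinates. In the 1 kb centred on its start site there were 53 JARID2 reads, a level of 12.5-fold (9.34 to 16.3), and 1 MTF2 read, a level of 0.285-fold (0.00722 to 1.59). In steps of 200 bp, JARID2 went from 0 reads in the step from 4775201 to 8, 20, 17 and 6 reads over the next 4 steps, and 4 in the step after. The highest step, from 4775601 to 4775800, stood at 23.5-fold (14.4 to 36.3). JARID2 was thus high in a stretch from 4775401 to 4776200 that spans the start site, and MTF2 had 0 reads in all of it. On chromosome 1 as a whole 51.8% of single 200 bp steps had 0 MTF2 reads, which is not the share for 4 such steps in a row. Over the whole stretch 2.81 MTF2 reads were expected. A second, lower rise of JARID2 lay 1100 bp beyond the start site, upstream of the gene, with 8 and 7 reads in the steps from 4776801 and 4777001 (9.41 and 8.24-fold). MTF2 had 1 and 0 reads in those steps.

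Lypla1 encodes acyl-protein thioesterase, an enzyme that removes fatty acid groups from proteins, and is transcribed toward higher coordinates. Its central 1 kb held 69 JARID2 reads (16.2-fold, 12.6 to 20.6) and 0 MTF2 reads (0 to 1.05-fold). The JARID2 peak ran from 4797601 to 4798200, with 29, 14 and 22 reads in its 3 steps. Its lower-coordinate edge was sharp, at 1 read in the step before and 29 in the first step of the peak, the highest step at any of the 3 genes (34.1-fold, 22.9 to 49.0). The middle step was the lowest of the 3, so the counts, taken after the 100 bp shift, had 2 tops on either side of a dip. Whether the dip exceeds counting error was not tested. MTF2 reads resumed outside the peak. There were 2 in each of the steps from 4797001 and 4797201 and 4 in the step from 4796801, a level of 5.70-fold where JARID2 had 1 read.

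Tcea1 encodes the transcription elongation factor TFIIS, which helps stalled RNA polymerase II to resume, and is transcribed toward higher coordinates. The central 1 kb held 54 JARID2 reads (12.7-fold, 9.55 to 16.6) and 1 MTF2 read (0.285-fold, 0.00722 to 1.59). The JARID2 peak was the widest of the 3 and lay mostly inside the gene, from 4847601 to 4848800. Its 6 steps held 14, 18, 12, 16, 17 and 6 reads, against 2 in the step before and 0 in the step after. The single MTF2 read within the peak lay in the fifth step. In steps of 200 bp the highest was the second, at 21.2-fold (12.6 to 33.5), but in steps of 100 bp it was the one from 4848401, so the peak had a broad top without a clear summit.

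**Figure D1:**
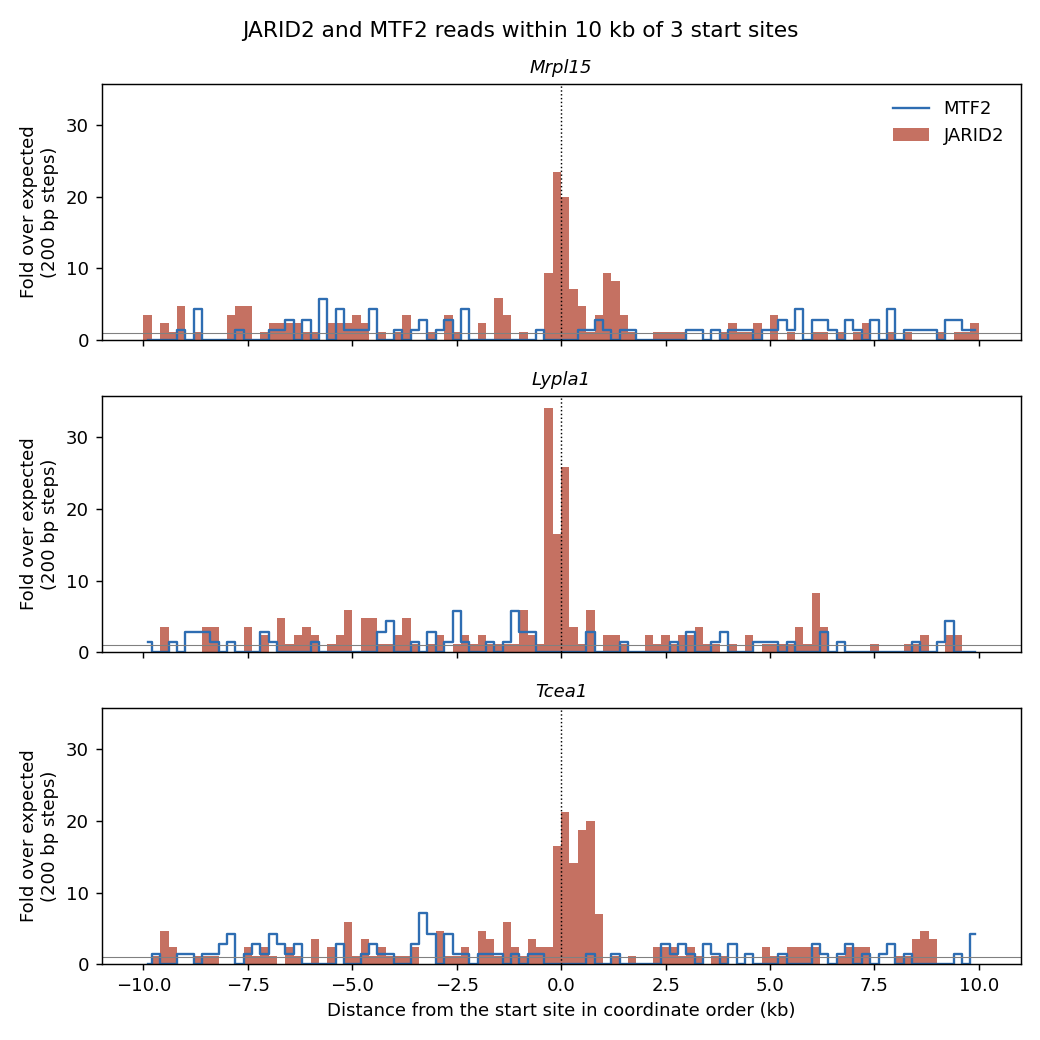
Fold over expected in 200 bp steps (vertical axis) against the distance from each start site in kb, in coordinate order, with JARID2 as bars and MTF2 as a line; the grey line marks 1-fold and the dotted line the start site. JARID2 reaches 23.5, 34.1 and 21.2-fold at Mrpl15, Lypla1 and Tcea1, and MTF2 is at 0 across the centre of each JARID2 peak.

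Taken as one set, the central 1 kb windows held 176 JARID2 reads and 2 MTF2 reads. The JARID2 level was 13.8-fold (11.8 to 16.0). MTF2 stood at 0.190-fold (0.0230 to 0.686), with 2 reads where 10.5 were expected. The genes were chosen on these values and are not replicates, so the pooled interval describes the set only. At each single gene the MTF2 interval included the expected level. Scaled to the distinct reads of each whole library, JARID2 exceeded MTF2 by a ratio of 61.0 (16.6 to 508). The ratio was 13.4 (6.32 to 33.9) in the fixed 1 kb bins and 11.5 (6.74 to 21.4) in 2 kb windows. Without a shift it was 124 (22.0 to 4930), and with MTF2 reads of score above 0 alone 36.9 (10.1 to 307). The ratio was 36.8 (6.32 to 1480) at Mrpl15 and 37.4 (6.44 to 1510) at Tcea1. At Lypla1, with 0 MTF2 reads, the ratio was 15.9 when computed on a floor of 3 MTF2 reads, and its exact interval ran from 12.6 upward. In these central 1 kb windows the JARID2 intervals of the 3 genes overlap one another, and so do their MTF2 intervals. Over the whole peaks JARID2 was higher at Lypla1, at 25.5-fold (19.7 to 32.5). It was at 15.0-fold (11.2 to 19.7) at Mrpl15 and 16.3-fold (13.0 to 20.2) at Tcea1. The order of the genes was not tested. The upper bounds of the MTF2 intervals were 1.59, 1.05 and 1.59-fold, below the 5-fold level used to call a bin. Because the genes were chosen on these levels, that is a description and not a test. Differences of MTF2 from its expected level within those bounds were not detectable at this depth at a single gene.

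The MTF2 level varied with the window. Within 250 bp of the start sites MTF2 had 0 reads at all 3 genes, where 5.26 were expected in sum, and JARID2 stood at 18.8, 22.6 and 17.9-fold. Within 1 kb of the start sites MTF2 had 5, 6 and 3 reads (0.713, 0.855 and 0.428-fold). The summed level was then 0.665-fold (0.364 to 1.12), an interval that includes the expected level. In the fixed 1 kb bins that hold the start sites, the MTF2 levels were 0.285, 1.14 and 0.570-fold. The JARID2 levels there were 10.6, 12.0 and 9.18-fold. Of all bins on chromosome 1, 17.4% had at most 1 MTF2 read.

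Away from the start sites both libraries returned to near their expected levels. From 500 bp to 2 kb, JARID2 was at 2.82-fold (1.98 to 3.91) at Mrpl15, 1.88-fold (1.21 to 2.80) at Lypla1 and 4.24-fold (3.18 to 5.53) at Tcea1, where the wide peak runs into this zone. MTF2 was at 0.665, 1.24 and 0.665-fold there. From 2 to 10 kb, JARID2 was at 1.21, 1.52 and 1.35-fold and MTF2 at 1.26, 0.819 and 1.28-fold. The summed JARID2 level from 2 to 10 kb, 1.36-fold (1.20 to 1.53), was still above 1, and the MTF2 level of 1.12-fold (0.968 to 1.29) was not beyond its counting error.

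**Figure D2:**
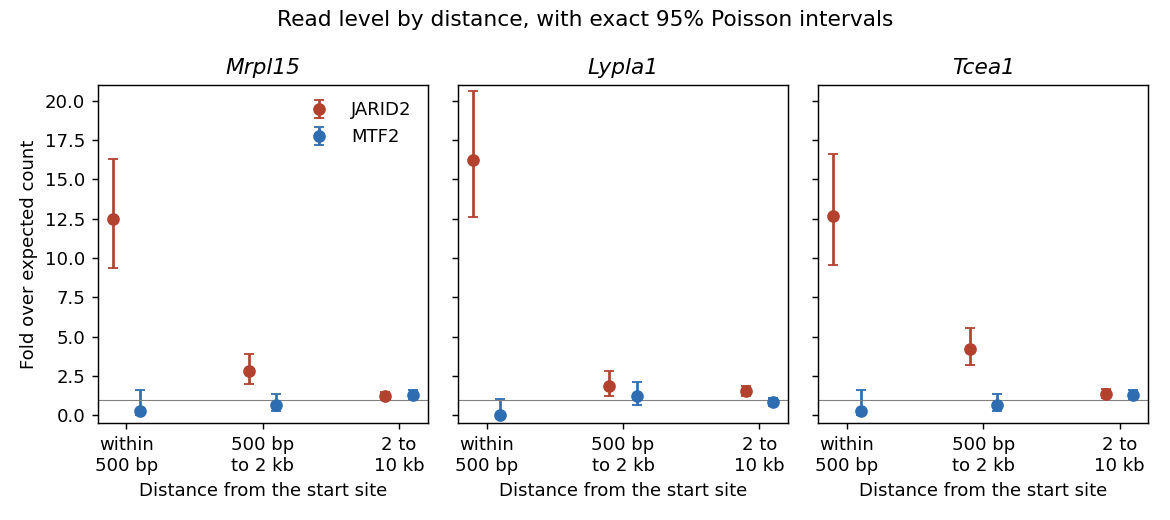
Fold over the expected count (vertical axis) in 3 zones of distance from the start site of each gene, with JARID2 in red and MTF2 in blue; points are levels and bars exact 95% Poisson intervals from 1 library each. JARID2 falls from 12.5, 16.2 and 12.7-fold within 500 bp to 1.21, 1.52 and 1.35-fold at 2 to 10 kb, while MTF2 is lowest within 500 bp in all 3 panels.

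The flanks were counted on each side. From 1 to 10 kb on the lower-coordinate side JARID2 had 64 reads at each gene (1.67-fold, 1.29 to 2.14), and on the higher-coordinate side 47, 50 and 45 reads (1.23, 1.31 and 1.18-fold). The lower-coordinate side is the gene body of Mrpl15 but lies upstream of Lypla1 and Tcea1. At each gene the JARID2 intervals of the sides overlap, though the lower side had more reads at all 3. In sum JARID2 had 192 reads on the lower side (1.67-fold, 1.45 to 1.93) and 142 on the higher side (1.24-fold, 1.04 to 1.46). The difference was not tested. MTF2 on the higher-coordinate side of Lypla1 was at 0.602-fold (0.362 to 0.940), below expected, against 1.08-fold on its lower side, where the interval included the expected level. At Tcea1 it was at 1.52-fold (1.12 to 2.02) on the lower side and 0.918-fold (0.615 to 1.32) on the higher side. These values are picked from the sides of all 3 genes. How often stretches of this length on chromosome 1 differ as much from the expected level was not examined.

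Across the windows, bins of 1 kb were raised in JARID2 only at the start sites. At each gene the 2 adjoining bins at the start were at 5-fold or more, and none of the 18 bins beyond 1 kb was. Over all of chromosome 1, 1.56% of bins reached that level in JARID2. MTF2 had 0 raised bins in the 62 bins of the windows, and on chromosome 1 only 0.164% of bins were raised, so an absence in 62 bins is close to what the background gives. In steps of 200 bp, 7, 7 and 8 of 100 steps per gene were at 5-fold or more in JARID2, against 2.13% of all steps. MTF2 had 1, 2 and 1 such steps, against 1.38% of all steps, and all of them lay beyond 1 kb from the start sites. The highest was 5 reads (7.13-fold) in the step from 4844401, 3300 bp before the Tcea1 start site.

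How the strands were laid out under the peaks is a measure that did not choose the genes. At a single bound place, plus-strand 5' ends lie before it and minus-strand 5' ends after it, about 1 fragment length apart. At Mrpl15, 25 plus-strand and 26 minus-strand JARID2 reads lay within 500 bp of the highest step, and the median minus-strand 5' end was 246 bp past the median plus-strand 5' end. At Lypla1 there were 33 and 28 reads with a distance of 49.5 bp. At Tcea1 there were 41 and 24 reads and a distance of -26.5 bp, but that 1 kb ends before the peak does. Over each whole peak and 100 bp either side, a choice made after these values were seen, the distances were 193 bp at Mrpl15, 92 bp at Lypla1 and 309 bp at Tcea1, where 42 plus-strand and 43 minus-strand ends then counted. The usual order thus held at all 3 genes over the whole peaks. The peaks were found on ends already moved 100 bp downstream by strand, which favours that order, so it is a description only.

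For comparison, 276 other JARID2 peaks of chromosome 1 had the width and height of these 3. A peak was a run of at least 3 steps of 200 bp at 5-fold or more, and the ranges taken were 600 to 1200 bp wide with a highest step of 21.2 to 34.1-fold. Over whole peaks their median strand distance was 211 bp, with quartiles at 160 and 262 bp. Of these peaks, 40.6% had a smaller distance than Mrpl15, 7.25% a smaller one than Lypla1 and 88.8% a smaller one than Tcea1. Within 500 bp of the highest step, the measure planned beforehand, their median distance was 189 bp, with quartiles at 136 and 238 bp. Smaller distances than at Mrpl15, Lypla1 and Tcea1 were then found in 77.9%, 4.35% and 1.45% of them. On that measure Lypla1 and Tcea1 thus stood near the low end. At Lypla1 the minus-strand ends had 2 tops, with 10 ends 300 to 200 bp before the start site and 7 ends 200 to 300 bp after it, and as few as 2 per 100 bp between. Plus-strand ends there numbered 9, 2, 6, 4 and 6 per 100 bp from 400 bp before to 100 bp after the start site. At Tcea1 plus-strand ends stood at 2 to 6 per 100 bp from 300 bp before to 600 bp after the start site. Minus-strand ends were densest 700 to 800 bp after it (8 ends).

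**Figure D3:**
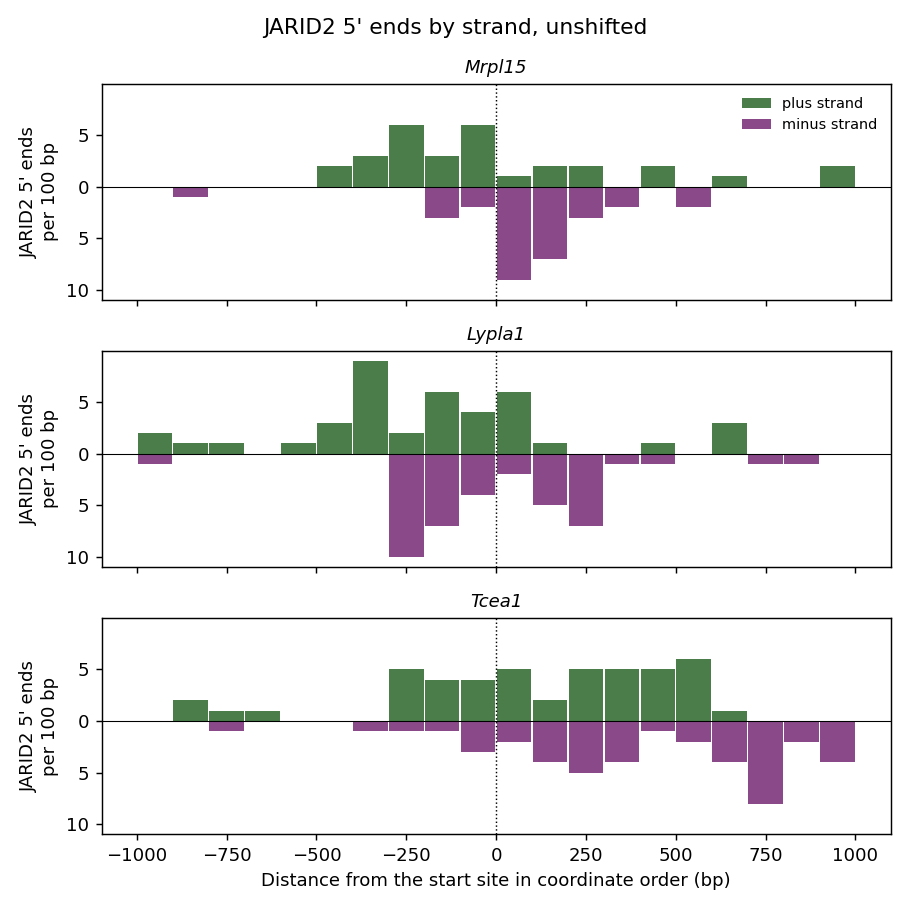
Number of distinct JARID2 5' ends per 100 bp (vertical axis, plus strand upward and minus strand downward) against the distance from the start site in bp, before any shift. Minus-strand ends lie past plus-strand ends at Mrpl15, by 193 bp at the medians over the whole peak, have 2 tops at Lypla1 (10 and 7 ends) and are densest at Tcea1 700 to 800 bp after the start site (8 ends).

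Repeat reads were few. Within 1 kb of the start sites there were 1.10, 1.10 and 1.16 deposited JARID2 reads per distinct read. Within the peaks themselves the values were 1.10, 1.12 and 1.17. The median within the 276 peaks of like width and height was 1.10, with quartiles at 1.07 and 1.14, so Tcea1 lay above the upper quartile. For MTF2 no read was repeated at Mrpl15 or Tcea1, and Lypla1 had 7 deposited reads for 6 distinct ones. Of the MTF2 reads within 1 kb of Mrpl15, Lypla1 and Tcea1, 2 of 5, 3 of 7 and 2 of 3 had a deposited score of 0, against 39.3% in the whole library. With so few reads the intervals ran from 5.27 to 85.3%, 9.90 to 81.6% and 9.43 to 99.2%, too wide for a comparison. The meaning of the score is not given in the sources used here.

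Low MTF2 was common under JARID2 peaks of this size on chromosome 1. Measured over each peak, JARID2 was at 15.0-fold (11.2 to 19.7) at Mrpl15, 25.5-fold (19.7 to 32.5) at Lypla1 and 16.3-fold (13.0 to 20.2) at Tcea1. Of the other 1647 JARID2 peaks, 61.1% were below Mrpl15 in this level, 84.3% below Lypla1 and 66.5% below Tcea1. The 3 peaks together held 1 MTF2 read in 2600 bp where 9.12 were expected (0.110-fold, 0.00278 to 0.611). That interval too describes a set chosen on its values. Among the 276 peaks of like width and height, 169 had at most 1 MTF2 read (61.2%, 55.2 to 67.0) and 220 lay below 1-fold (79.7%, 74.5 to 84.3). Only 4 of them reached 5-fold in MTF2 (1.45%, 0.396 to 3.67). Among all 1647 other peaks, the 276 included, the shares were 47.6% at most 1 read, 68.1% below 1-fold and 5.59% at 5-fold. The peaks of the 3 genes had 2.11 to 4.21 MTF2 reads expected each, so counts of 0 or 1 can also come from counting error. In sum the 276 peaks held 548 MTF2 reads against 806 expected, a level of 0.680-fold (0.624 to 0.740). MTF2 was higher in the 355 peaks wider than 1200 bp, where the median was 1.43-fold and 39 reached 5-fold (11.0%, 7.93 to 14.7). Those peaks were not matched in height. Their median JARID2 level was 26.1-fold, against 15.9-fold in the 276 peaks, so width and height differed together. The peaks at 5-fold in MTF2 were also unevenly placed. Many of those among the 1647, and some among the 276 and the 355, lay in a single run of successive JARID2 peaks. The shares over chromosome 1 thus mix this run with the rest.

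**Figure D4:**
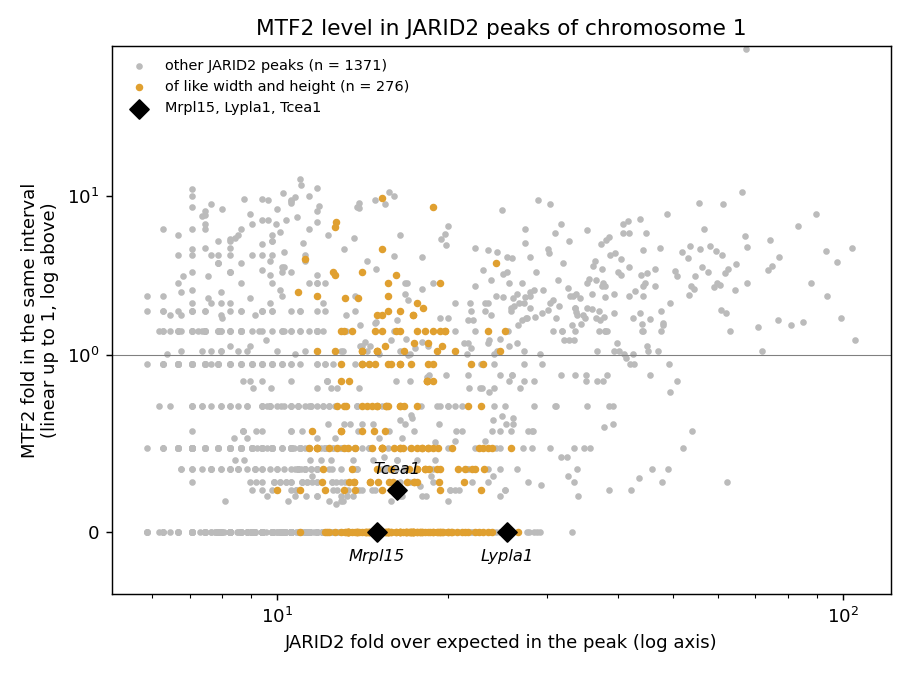
MTF2 fold (vertical axis, linear up to 1 and logarithmic above) against JARID2 fold (log axis) in the JARID2 peaks of chromosome 1; black diamonds are the 3 promoters, orange points the 276 peaks of like width and height and grey points the remaining ones. Mrpl15 and Lypla1 lie at 0 MTF2 reads and Tcea1 at 0.238-fold, among many orange points at or near 0.

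The same held for fixed bins of 1 kb. Between 9.18 and 12.0-fold JARID2, the range of the 3 bins with the start sites, chromosome 1 had 433 other bins, with a median MTF2 level of 0.570-fold and quartiles at 0.285 and 1.43. MTF2 was below 1-fold in 64.7% (60.0 to 69.2) of them and had 0 reads in 18.0%. In bins with JARID2 below 5-fold those shares were 54.0% and 4.67%, and the median MTF2 level was 0.855-fold. High MTF2 was also more frequent in the 433 bins. MTF2 reached 5-fold in 32 of them (7.39%, 5.11 to 10.3), against 0.0393% of the bins below 5-fold JARID2, and its mean was 1.36-fold against 1.02-fold. How many of the 32 bins lie in the run of successive peaks with high MTF2 was not examined, so this share may not hold across chromosome 1.

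The MTF2 library did show enrichment close by. From the first read of chromosome 1 to 1 Mb past Tcea1, 42 bins of 1 kb were at 5-fold or more in JARID2 and 8 in MTF2. All 8 lay between 4480001 and 4489000, centred at -295.3 to -287.3 kb from the Mrpl15 start site, and JARID2 was raised in each of them. The highest MTF2 level was 16.5-fold, in the bin from 4481001, which had 40.7-fold JARID2. Next was 11.4-fold in the bin from 4486001, beside 37.2-fold JARID2. JARID2 was highest at 179-fold in the bin from 4482001, where MTF2 was at 3.14-fold. In the gene table the protein-coding gene before Mrpl15 is Sox17, a regulator of endoderm, but the block was not assigned to a gene, since no annotation of the files' own build was used. The remaining 34 JARID2 bins were not raised in MTF2 (1.44% of all chromosome 1 bins were raised in JARID2 alone), and the 6 bins at Mrpl15, Lypla1 and Tcea1 were among them, with MTF2 between 0.285 and 1.43-fold.

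Several of those 34 bins had far more JARID2 than the 3 promoters and MTF2 below the 5-fold call, though not always low MTF2. They include the bin from 4482001, at 3.14-fold MTF2, which lies between 2 bins raised in MTF2. JARID2 was at 34.1-fold in the bin from 5010001, with MTF2 at 2.57-fold, and at 33.2-fold in that from 3661001, with MTF2 at 0.285-fold. It was at 31.8-fold from 4561001, with MTF2 at 1.71-fold. Within the stretch the highest bins of Lypla1 and Tcea1 shared rank 23 of the raised JARID2 bins, and the highest of Mrpl15 had rank 26.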

How the data were processed

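ChIP-seq reads of MTF2 and JARID2 from mouse ES cells were used, 1 library each, made with 15 PCR cycles per the labels' protocols. The authors deposited aligned reads as intervals, 1 line per read, with a deposited score of unstated meaning (0 to 10 in MTF2, 1000 on every JARID2 line). Which aligner, filters and build were used is not given in the sources used here. Deposited reads numbered 10986401 for MTF2 and 14465269 for JARID2.

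Of reads that shared a 5' position and strand, 1 was kept (leaving 8946204 and 12900993). Their 5' ends were moved 70 bp (MTF2) or 100 bp (JARID2) downstream and counted with numpy 2.4.6. The expected count was the mean over the 191101 bins of 1 kb on chromosome 1 with a read in either library, up to the 99th percentile, and 200 bp steps used its share by length. Folds have exact Poisson intervals and ratios and shares exact Clopper-Pearson intervals (scipy 1.17.1). No significance test was made, because there is 1 library per factor. The fold computation was tested on simulated counts. The genes, windows and comparison sets were chosen with earlier results of these data known. The text names the 3 genes and, by position, the neighbouring bins highest in either library. Start sites were rounded positions given with the choice of genes, and gene directions are background knowledge. Promoter sequence had been planned and was not analysed here.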

Additional observations from a re-analysis of the deposited data

How the results depend on the processing

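The alternatives changed repeat reads, the shift, the expected count, the MTF2 score and the window. Over 29 results, 138 values under alternatives were computed, of which 113 stayed within the counting interval or, for counts and strand distances, within 1.5 times, 24 moved and 1 turned direction. That was the strand distance at Tcea1, -26.5 bp within 500 bp of the highest step and 309 bp over the whole peak; at Lypla1 it moved to 92 bp. The cause was not tested, except that the whole Tcea1 peak holds minus-strand ends that the narrower window leaves out. In the order Mrpl15, Lypla1, Tcea1, the central JARID2 level was 18.8, 22.6 and 17.9-fold in 500 bp windows and 8.59, 10.9 and 8.92-fold against reads 1 to 10 kb away. In 2 kb windows it was 7.06-fold at Mrpl15 and 9.65-fold at Lypla1, and in the fixed 1 kb bin 12.0-fold at Lypla1 and 9.18-fold at Tcea1. The central MTF2 level moved to 0-fold at Mrpl15 and Tcea1 in 500 bp windows and at Mrpl15 without a shift, and to 1.14-fold at Lypla1 in the fixed bin. JARID2 over the whole 20 kb was 1.67, 1.91 and 1.95-fold when the mean of all bins set the expected count. The summed JARID2 to MTF2 ratio was 13.4 in fixed bins, 11.5 in 2 kb windows and, on a floor of 3 reads, 29.1 (from 23.3 upward) in 500 bp windows. Raised bins on chromosome 1 numbered 7323 (JARID2) and 1853 (MTF2) at 3-fold, and 1264 and 44 at 10-fold. The whole-peak strand distance and the peaks of like width at any height were chosen after the data were seen. With 3.51 MTF2 reads expected per 1 kb, depth limits the MTF2 levels. No paired analysis was possible because each factor has 1 library.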
